A study of Arabidopsis thaliana with 12 samples.

Results

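The average effect of losing both chloroplast ascorbate peroxidases was measured over 2 genetic backgrounds of Arabidopsis thaliana. The 6 libraries that lack both enzymes (3 of sapx tapx and 3 of sapx tapx pgr5) were set against the other 6 of the 12 libraries (3 of wild type and 3 of pgr5). Libraries were assigned by their genotype labels alone. The sapx tapx plants carry mutations in SAPX and TAPX, the sapx tapx pgr5 plants carry these and a mutation in PGR5, the pgr5 plants carry the PGR5 mutation only, and wild type carries none of them. The labels do not name the alleles. All 4 genotypes shared 1 history, low light (40 to 60 µmol photons m-2 s-1) for 18 days and then 90 min of high light at 1500 µmol photons m-2 s-1. RNA came from fully expanded rosette leaves, and because every library was taken after strong light, the comparison is between genotypes and measures no response to light. Replicates are separate samples in the labels, which do not say whether they came from separate plants, so p-values measure only the spread between these samples, which may be technical. The labels name no batch. Libraries with the same replicate number deviated together within each peroxidase status (sapx tapx with sapx tapx pgr5, and wild type with pgr5), with correlations of 0.202 to 0.634 in 6 of 6 pairs. Of 12 same-number pairs across peroxidase status 1 exceeded 0.1. Pairs with different numbers across status reached 0.538 (wild type replicate 2 with sapx tapx pgr5 replicate 1), so high correlations were not confined to same-number pairs. The 6 libraries of a side may therefore not be 6 independent samples, and limma values with the same-number libraries of a side as a block, an alternative chosen after seeing the data, are given where they end a call.

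Ascorbate peroxidases use ascorbate to reduce hydrogen peroxide to water. SAPX is the form in the chloroplast stroma (and, in Arabidopsis, also in mitochondria) and TAPX the form bound to thylakoids, where photosystem I makes superoxide that is converted to hydrogen peroxide in strong light. PGR5 is needed for the main route of cyclic electron flow around photosystem I, which protects that photosystem when light exceeds what carbon fixation can use. Small heat shock proteins bind unfolded proteins, and the factors that switch them on bind heat shock elements in their promoters.

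Besides reads on exons, the deposited tables count exon-exon reads, which cross the joint left by a spliced intron, and intron reads. The junction share is the exon-exon reads of a gene as a percentage of its exon reads, and the intron share is its intron reads as a percentage of all reads of the gene. The junction share depends on where along a transcript the reads fall and on which joints are present, and the intron share on unspliced or retained sequence. Changes in a share are given as log2 odds, that is the log2 ratio of the odds in plants without both peroxidases to the odds in plants that have them.

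The joints of 6 genes with a single intron are shown because such a gene has 1 joint for its exon-exon reads to cross, and these 6 had a changed junction share. Each line gives the last 15 bases before the joint in lower case and the first 15 after it in capitals, read 5′ to 3′ on the transcribed strand from RefSeq TAIR10.1. The genes were taken from the 88 called genes with 1 intron in every RefSeq transcript and the joint within the coding sequence, of 837 such genes tested. The first 3 had a higher share in plants without both peroxidases, and the last 3 a lower one.
PSRP5: ctttcgcttctccagTTTTGAGCCTTAAAC
AT4G18100: agaatcaccgtcaagGAAAGCTGGAGGAGG
MT2B: caatggttgcggaggTTGCAAAAGGTACCC
LHCB4.1: caagacgctggcaagGTGGAGCTTGTAGAT
COR15B: cctcaacgaagccacAAAGAAAGCTTCTGA
LHCB6: atggctcgatggctcGCTACCAGGAGATTT
The intron removed at the PSRP5 joint is chr3:21069908-21070160 (minus strand) and is 253 bases long. That of AT4G18100 is chr4:10036027-10036385 (minus), that of MT2B is chr5:506924-507099 (minus), and that of LHCB4.1 is chr5:209594-209880 (plus). The intron of COR15B is chr2:17709420-17709676 (minus) and that of LHCB6 is chr1:5447235-5447449 (minus). All 6 begin with GT and end with AG, the usual ends of plant introns.

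A pair of promoters is shown for genes that stand among the largest rises. The first is of GSTU24, a tau class glutathione transferase gene, and covers the 200 bases before the RefSeq gene start, chr1:5869343-5869542 (plus strand). The capitals mark a match to TGACG, the core of the element bound by TGA factors, which starts 169 bases before that start and 472 bases before the start in the deposited gene models, which differ from those of RefSeq for many genes.
GSTU24: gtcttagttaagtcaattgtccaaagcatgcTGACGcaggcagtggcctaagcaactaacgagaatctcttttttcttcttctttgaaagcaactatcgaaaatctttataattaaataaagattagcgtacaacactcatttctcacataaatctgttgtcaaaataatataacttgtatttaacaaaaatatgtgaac
The second is of HSP17.6C-CI, a cytosolic small heat shock protein gene, over chr1:19980099-19980298 (plus strand). The capitals mark a match to a heat shock element of 3 units (GAA, any 2 bases, TTC, any 2 bases, GAA), which starts 53 bases before the RefSeq gene start and 216 bases before the deposited one.
HSP17.6C-CI: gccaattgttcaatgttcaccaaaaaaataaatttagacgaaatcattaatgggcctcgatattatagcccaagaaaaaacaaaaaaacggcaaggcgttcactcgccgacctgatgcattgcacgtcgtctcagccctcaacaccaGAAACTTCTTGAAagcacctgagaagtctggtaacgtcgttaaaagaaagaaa

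The libraries held 4916603 to 6828070 exon reads, and 3 reads, the floor used here, are worth 0.439 to 0.610 CPM (exon reads relative to the library total on the usual CPM scale, with TMM). No pair of replicates of a genotype agreed within sampling noise (chi-square of 3.83 to 12.9 per degree of freedom). The kit does not mark strand, so reads of a gene and of an overlapping gene on the other strand cannot be told apart. The 4 mesophyll markers summed to 39789.7 to 46145 CPM without both peroxidases (median 42748) and to 36338 to 44265 CPM with them (median 42284). The 4 root markers summed to 0 to 0.604 and 0 to 0.723 CPM in the same order. Fewer cells of a type and less RNA per cell cannot be told apart in such tissue. Rapid stress and touch genes differed widely within genotypes. The mean log2(CPM + 1) of the 22 listed genes was 5.84, 4.27 and 5.45 in sapx tapx replicates 1 to 3 and 5.12, 3.43 and 5.12 in sapx tapx pgr5. It was 2.59, 5.37 and 2.77 in wild type and 4.39, 4.70 and 3.85 in pgr5. Wild type replicate 2 thus stood above the other wild type libraries, and replicate 2 of both peroxidase mutants below theirs.

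SAPX (AT4G08390, chromosome 4, 5314905 to 5317456) had 17.3, 25.9 and 18.4 CPM in sapx tapx and 17.62, 28.6 and 16.1 CPM in sapx tapx pgr5, against 205, 238 and 198 CPM in wild type and 249.8, 239 and 234 CPM in pgr5. TAPX (AT1G77490, chromosome 1, 29117542 to 29120215) had 17.595, 19.2 and 18.4 CPM in sapx tapx and 27.0, 27.2 and 24.4 CPM in sapx tapx pgr5, against 182, 155 and 173 CPM in wild type and 192, 199 and 210.3 CPM in pgr5. Both genes were low in all 6 libraries labelled with the mutations and high in the other 6. SAPX fell by 3.46 ± 0.14 on the log2 scale (SE, edgeR adjusted p = 4.12e-08) and TAPX fell by 3.07 ± 0.08 (adjusted p = 9.24e-11). PGR5 RNA averaged 259.9 ± 41.8 CPM without both peroxidases and 242 ± 5.59 CPM with them (SD, n = 6 each). Its log2 fold change was 0.10 ± 0.09 (adjusted p = 0.632). It stood at 209 to 281 CPM in sapx tapx pgr5 and 231 to 247 CPM in pgr5, against 238 to 327 CPM in sapx tapx and 241 to 244 CPM in wild type, so RNA levels do not check the pgr5 label.

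The reads left on TAPX in the mutants also differed in both shares. In TAPX, exon-exon reads made up 64.0%, 67.0% and 57.9% of exon reads in sapx tapx and 55.6%, 52.5% and 60.5% in sapx tapx pgr5, against 79.7%, 80.7% and 80.5% in wild type and 80.1%, 79.4% and 82.1% in pgr5. Intron reads made up 7.5%, 4.21% and 6.92% of its gene reads in sapx tapx and 1.92%, 5.35% and 6.36% in sapx tapx pgr5, against 0.0915%, 0.446% and 0.272% in wild type and 0.353%, 0.374% and 0.304% in pgr5. The groups did not overlap in either share. The junction share fell by 1.53 ± 0.12 in log2 odds (edgeR adjusted p = 2.77e-36, limma 1.19e-08), and the intron share rose by 4.17 ± 0.42 (edgeR adjusted p = 1.88e-07, limma 0.000243). The intron reads behind this were few, 3 to 11 in each library without both peroxidases and 1 to 5 in each of the others, while its exon reads were fewer as given above.

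In SAPX the intron share was 4.39%, 3.91% and 7.63% in sapx tapx and 4.76%, 0.535% and 6.14% in sapx tapx pgr5, against 0.162%, 0.578% and 0.791% in wild type and 0.541%, 0.622% and 0.883% in pgr5. One sapx tapx pgr5 library, replicate 2, lay within the range of the plants with both enzymes, and the other 5 lay above it. SAPX had 1 to 10 intron reads in each library without both peroxidases and 2 to 13 in each of the others, so its share was higher over fewer exon reads. The rise of the intron share was 2.91 ± 0.47 in log2 odds (edgeR adjusted p = 0.00197). That call was lost with limma (adjusted p = 0.259, and 0.420 with the block) and without sapx tapx replicate 3 (adjusted p = 0.0607). The junction share of SAPX had a log2 odds of -0.07 ± 0.14 (adjusted p = 0.860, limma 0.769), so unlike that of TAPX it did not pass the test, and the difference between these genes was not tested.

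TAPX and SAPX were the only 2 genes called on the intron share among 6271 tested (0.0319%), both higher, with 349 genes at an unadjusted p under 0.05. The named genes beyond them that came closest among lower shares did not pass the test. AT3G14595 had a log2 odds of -1.74 (adjusted p = 0.153), HSD2, a hydroxysteroid dehydrogenase gene, of -1.62 (0.337) and AT2G27420 of -2.01 (0.397).

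**Figure D1:**
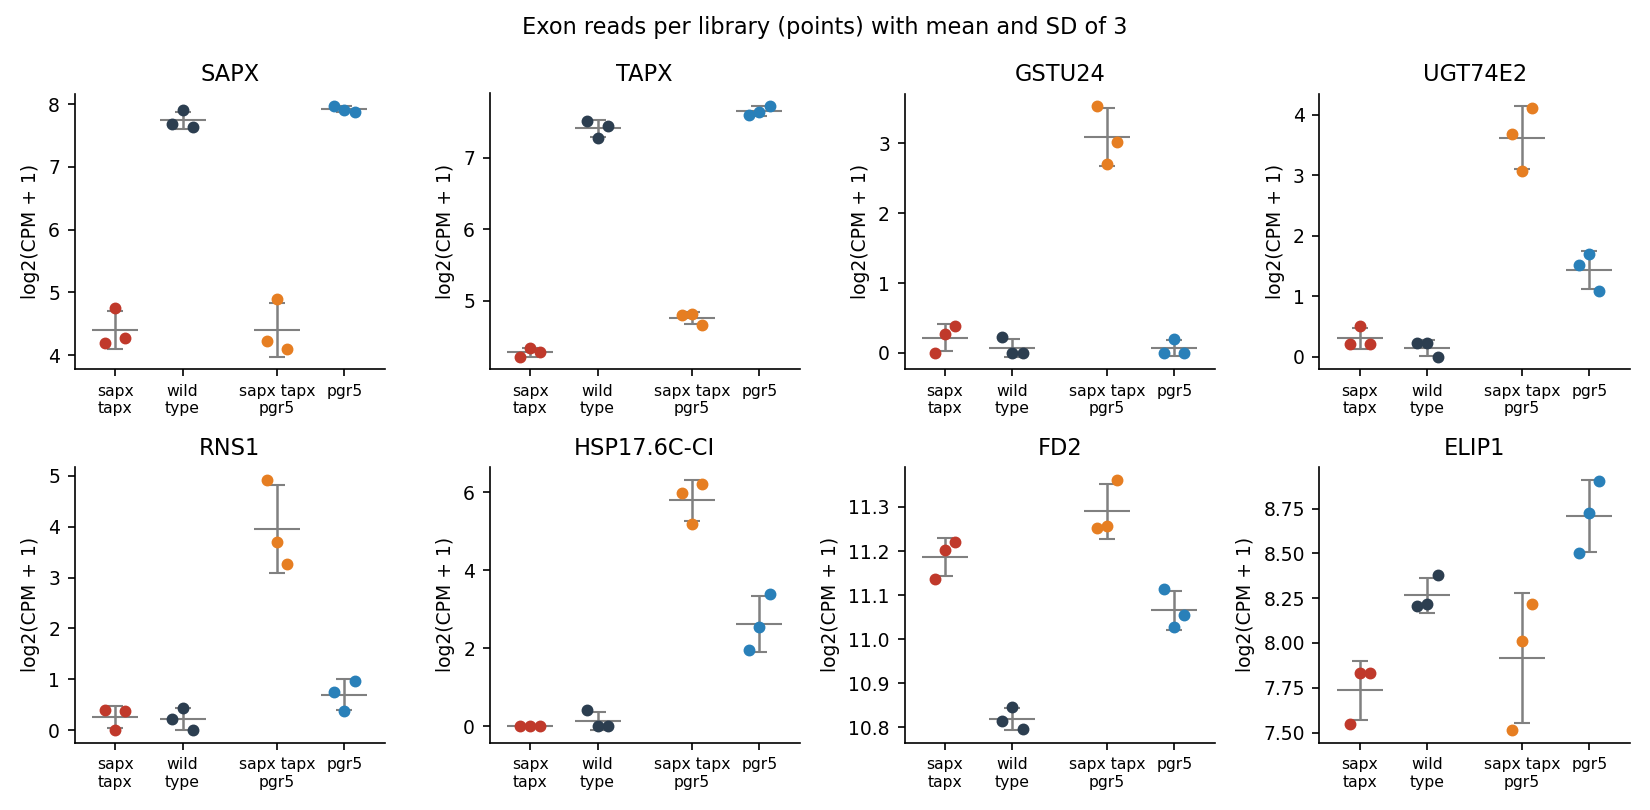
Exon reads of 8 genes as log2(CPM + 1) on the y axis in each library (points) with the mean and SD of 3 libraries per genotype (bars), for sapx tapx beside wild type and sapx tapx pgr5 beside pgr5. SAPX and TAPX are low in all 6 mutant libraries, GSTU24, UGT74E2, RNS1 and HSP17.6C-CI stand higher in sapx tapx pgr5 than in the other genotypes, and FD2 and ELIP1 differ by less but in both backgrounds. Axes do not start at 0 in every panel.

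Exon reads differed for 94 of 16350 genes tested (0.575%) in the edgeR quasi-likelihood test with the pgr5 genotype as a covariate. Of these, 81 were higher (0.495%) and 13 lower (0.0795%) in plants without both peroxidases. At an unadjusted p under 0.05 there were 2413 genes. The average effect of this fit leans toward the background with more reads of a gene. It need not equal the mean of the effects in both backgrounds. Most of the rises were small: 54 of the 81 were under 2-fold. The CPM ranges of both groups of 6 did not overlap for 49 of the 94 genes, while 1.02% of all genes tested had ranges that did not overlap. The number of calls depended on single libraries: leaving out pgr5 replicate 2 gave 19, leaving out pgr5 replicate 3 gave 21 and leaving out wild type replicate 2 gave 240. Of the 94 genes, 15 were called in every omission of 1 library. SAPX, TAPX, GSTU24, UGT74E2 and GRP-3 were among those 15. With the same-number libraries of a side as a block limma called 57 genes, 48 of them among the 94, where limma without it called 140.

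The largest rises, those of GSTU24, RNS1 and AT5G54165, came from genes that were nearly silent outside sapx tapx pgr5. GSTU24 (AT1G17170, chromosome 1, 5869846 to 5870840) had 0, 0.211 and 0.304 CPM in sapx tapx and 10.6, 5.54 and 7.07 CPM in sapx tapx pgr5, against 0.167, 0 and 0 CPM in wild type and 0, 0.150 and 0 CPM in pgr5. The 6 libraries without both peroxidases held 146 reads and the other 6 held 2, a ratio of 73.9 after scaling (95% counting interval 20.1 to 616, edgeR adjusted p = 0.00272). Of these reads 143 came from sapx tapx pgr5, set against 1 in pgr5, while sapx tapx had 3 and wild type 1. The gene thus stood high in 3 of the 6 libraries without both peroxidases, and in the wild type background its reads were too few for a fold. It passed the filter on low counts only through those 3 libraries, so its ratio and p-value are a description only.

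UGT74E2, a glucosyltransferase gene whose enzyme acts on the auxin indole-3-butyric acid and which is known to respond to hydrogen peroxide, had 0.159, 0.422 and 0.152 CPM in sapx tapx and 11.8, 7.39 and 16.2 CPM in sapx tapx pgr5, against 0.167, 0.173 and 0 CPM in wild type and 1.87, 2.24 and 1.12 CPM in pgr5. It rose by 2.61 ± 0.35 (adjusted p = 0.00565), and within the pgr5 background by 2.74 ± 0.35 (adjusted p = 0.00183). AOX1A, the alternative oxidase of mitochondria, was the third called gene of the hydrogen peroxide response list. It had 82.6, 91.1 and 72.4 CPM in sapx tapx and 125, 121 and 116 CPM in sapx tapx pgr5, against 62.4, 65.1 and 71.2 CPM in wild type and 84.8, 76.3 and 69.9 CPM in pgr5. Within each background all 3 libraries without both peroxidases were above all 3 with them, and the rise was 0.48 ± 0.09 (adjusted p = 0.0260). This call was lost in 9 of the 12 omissions of 1 library (highest adjusted p = 0.104, without pgr5 replicate 2) and with the block (0.0789). Of the 22 listed hydrogen peroxide response genes, 13 passed the filter on low counts, 3 rose and 0 fell, while 0.495% of all genes tested were called higher. Of the 13, 4 stayed under the level of that filter in at least 4 of the 6 libraries with both peroxidases, 2 of them among the called, so they passed mainly through libraries where they are high and the counts over this list are a description only. Without wild type replicate 2, 6 rose, where 203 of 16567 genes tested were called higher.

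RNS1, a secreted ribonuclease induced by wounding and phosphate starvation, had 0.317, 0 and 0.304 CPM in sapx tapx and 29.4, 12 and 8.57 CPM in sapx tapx pgr5, against 0.167, 0.346 and 0 CPM in wild type and 0.680, 0.299 and 0.962 CPM in pgr5. It rose by 4.21 ± 0.62 (adjusted p = 0.0103), a call lost without pgr5 replicate 1, 2 or 3 (adjusted p = 0.0504, 0.0647 and 0.0599). AT5G54165 had 0 to 0.317 CPM in sapx tapx and 7.97 to 10.9 CPM in sapx tapx pgr5, against 0 to 0.472 CPM in wild type and 0.160 to 1.197 CPM in pgr5. Its rise was 3.41 ± 0.61 (adjusted p = 0.0262), lost in 7 omissions (highest adjusted p = 0.143, without pgr5 replicate 3), and it overlaps AT5G54170 on the other strand over 87 bases. Outside sapx tapx pgr5 RNS1 and AT5G54165 stayed at 0 to 1.197 CPM. Like GSTU24, they passed the filter on low counts only through libraries where they are high, so their rises and p-values are a description only. When the 4 genotypes were fitted as 4 groups and the effects of both backgrounds averaged with equal weight, GSTU24, UGT74E2, RNS1 and AT5G54165 lost their calls (adjusted p = 0.0686, 0.199, 0.245 and 0.468). With the block RNS1 lost its call (limma adjusted p = 0.0708). GSTU24 and AT5G54165 were not called with the block (0.169 and 0.122), but limma without it did not call them either (0.0529 and 0.0548).

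Genes of the heat shock list made up 8 of the 94 calls. HSP70T-2, which is not on that list, was also called higher (2.02, adjusted p = 0.0417). Of 44 listed genes, 40 passed the filter, 8 rose and 0 fell, where 0.495% of all genes tested were called higher and 0.0795% lower, and the median log2 fold change was 0.73, against 0.01 over all genes tested. Limma called 16 of the 40, and 13 with the block, all higher, where it called 117 and 53 of all 16350 genes higher. Leaving out pgr5 replicate 1, 2 or 3 left 4, 0 or 3 of these calls, leaving out sapx tapx pgr5 replicate 1 or 3 left 5 each, and the median stayed at 0.61 to 0.97 over the omissions of 1 library. HSP17.6C-CI (AT1G53540, chromosome 1, 19980462 to 19981109) had no read in any sapx tapx library and 61.7, 35.4 and 72.9 CPM in sapx tapx pgr5, against 0.333, 0 and 0 CPM in wild type and 2.89, 4.79 and 9.46 CPM in pgr5. HSP17.6A, a class II small heat shock protein gene, likewise had no read in sapx tapx and 126, 86.0 and 144 CPM in sapx tapx pgr5, against 0, 0 and 0.472 CPM in wild type and 8.67, 11.97 and 24.2 CPM in pgr5. Both thus had few or no reads in the wild type background and did not overlap within the pgr5 background. Their average rises were 3.21 ± 0.42 (adjusted p = 0.00565) and 2.88 ± 0.41 (adjusted p = 0.00874). Each call was lost without pgr5 replicate 2 (adjusted p = 0.0507 and 0.0660), and with equal weight on both backgrounds the log2 fold changes were 0.31 (adjusted p = 0.897) and -0.10. DESeq2 did not call HSP17.6A either (adjusted p = 0.360).

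HSP17.6B-CI, another cytosolic class I gene, had 4.44, 2.95 and 2.58 CPM in sapx tapx and 389, 256 and 379 CPM in sapx tapx pgr5, against 3.17, 3.29 and 2.205 CPM in wild type and 20.2, 31.0 and 41.4 CPM in pgr5. Its average rise was 2.58 ± 0.50 (adjusted p = 0.0417). The rise was 0.21 in the wild type background and 3.47 ± 0.26 in the pgr5 background (adjusted p = 4.78e-05). The difference between these was 3.25 ± 0.46 (interaction, adjusted p = 0.0138). The average call was lost in 8 omissions (highest adjusted p = 0.183, without pgr5 replicate 3). The remaining called members were HSP23.6, a mitochondrial small heat shock protein (2.86 ± 0.43, adjusted p = 0.0103), the peroxisomal HSP15.7 (2.45 ± 0.42, 0.0208), HSP17.6A-CI (2.39 ± 0.36, 0.0108), HSP17.4 (2.37, 0.0301, named to complete the 8) and the chaperone gene AT1G71000 (2.198 ± 0.31, 0.00743). HSP23.6 lost its call without pgr5 replicate 2 (adjusted p = 0.0749), AT1G71000 without pgr5 replicate 2 or 3 (0.0578 and 0.0537) and HSP17.6A-CI without pgr5 replicate 1, 2 or 3 (0.0532, 0.0688 and 0.0744), and HSP15.7 lost it in 5 omissions (highest 0.104, without pgr5 replicate 2). With equal weight on both backgrounds HSP23.6, HSP15.7 and AT1G71000 were at 1.23, 2.01 and 1.304 and lost their calls (adjusted p = 0.519, 0.0993 and 0.154), and DESeq2 did not call HSP23.6 (0.207).

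The medians of the list in the 2 backgrounds lay apart. Leaving out 2 members with at most 3 reads in both groups, 16 heat shock genes were higher and 22 lower in sapx tapx than in wild type, with a median of -0.06, while 38 of 40 were higher in sapx tapx pgr5 than in pgr5, with a median of 1.41. The mean log2(CPM + 1) of the list was 3.52, 3.49 and 3.63 in sapx tapx against 3.51, 3.29 and 3.74 in wild type, and 6.53, 6.26 and 6.65 in sapx tapx pgr5 against 4.91, 5.01 and 5.24 in pgr5. The ranges therefore overlapped in the wild type background and lay apart in the pgr5 background. An interaction was called for 5 of the 40 genes, where 0.141% of all genes tested were called. The heat shock element of 3 units was sought, on either strand, in the 300 bases around the RefSeq start. It was found for 11 of the 40 tested heat shock genes (27.5%) and for 0.481% of 27443 protein-coding genes. Among called genes it was found for 4 of the 81 higher (4.94%) and 1 of the 13 lower (7.69%). Of the 10 largest called rises 1 had it, HSP17.6C-CI, whose promoter is printed above. TGACG was found for 24 of the 81 (29.6%), 2 of the 13 (15.4%), 4 of the 10 largest rises and 23.1% of the protein-coding genes.

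Over all 94 called genes, 4 had at most 3 reads in both groups of the wild type background. Of the other 90, 88 had the same sign in both backgrounds, 54 had the larger change in the pgr5 background, and 16 changed by more than 1 on the log2 scale there but by less than 1 in the wild type background. The 94 genes were called on the term over both backgrounds, which favours matching signs. Over all 16350 genes Spearman's rho of the log2 fold change between the backgrounds was 0.233. Tested within each background in the same 4-group fit, 6 genes were called between sapx tapx and wild type (0.0367%), 3 higher (0.0183%) and 3 lower (0.0183%). Between sapx tapx pgr5 and pgr5 252 were called (1.54%), 220 higher (1.35%) and 32 lower (0.196%). The called genes include 4 of the first set and 48 of the second.

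**Figure D2:**
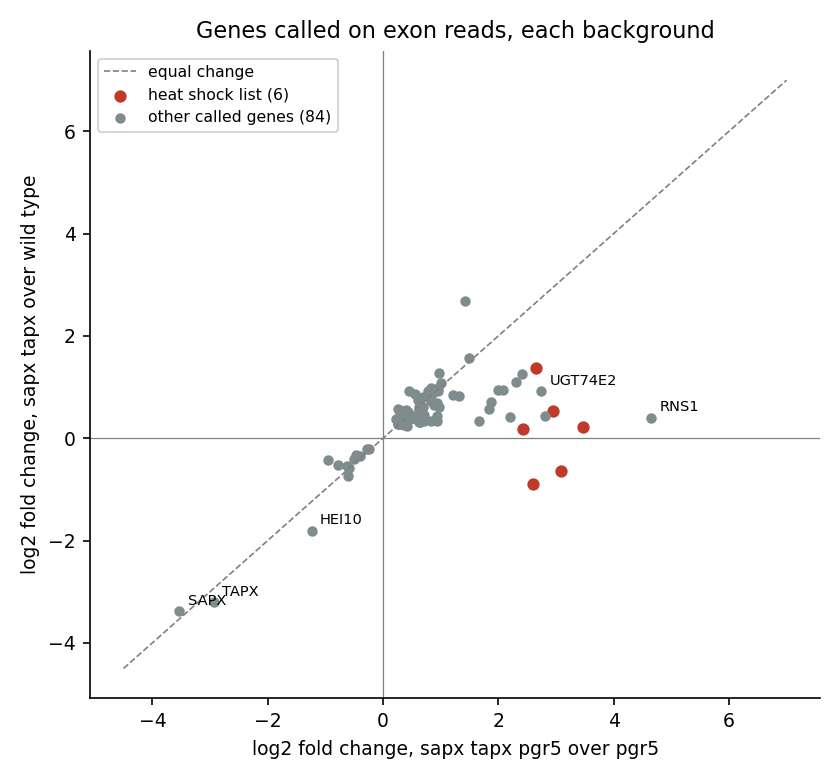
Log2 fold change of sapx tapx pgr5 over pgr5 (x axis) and of sapx tapx over wild type (y axis) for 90 of the 94 called genes, the other 4 having at most 3 reads in both groups of the wild type background. Points are genes, red points the 6 genes of the heat shock list that are shown, and the dashed line equal change. Most genes lie near the line, while the red points, UGT74E2 and RNS1 lie far to the right of it.

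The difference between the backgrounds was itself called for 23 genes (0.141%), 21 of them with the larger value in the pgr5 background (0.128%) and 2 with the smaller (0.0122%). With the block limma called 119 genes, and without it 17. SAT32, a gene named for salt tolerance, had 134, 152 and 153 CPM in sapx tapx and 169.9, 212 and 166 CPM in sapx tapx pgr5, against 155, 135 and 165 CPM in wild type and 46.4, 42.6 and 44.6 CPM in pgr5. SEC10, a subunit of the exocyst that tethers secretory vesicles, had 51.8, 53.2 and 54.2 CPM in sapx tapx and 47.8, 38.0 and 46.6 CPM in sapx tapx pgr5, against 54.5, 54.0 and 53.5 CPM in wild type and 18.7, 17.1 and 18.1 CPM in pgr5. Both genes were low in pgr5 alone. The differences between backgrounds were 2.09 ± 0.16 (adjusted p = 0.000320) and 1.32 ± 0.14 (adjusted p = 0.00490). FES1A, a nucleotide exchange factor of cytosolic HSP70, had 20.8, 23.2 and 20.7 CPM in sapx tapx and 225, 190.2 and 242 CPM in sapx tapx pgr5, against 23.7, 20.9 and 28.7 CPM in wild type and 80.7, 96.3 and 90.8 CPM in pgr5. Both pgr5 genotypes were high, the triple mutant more so, and the difference was 1.48 ± 0.18 (adjusted p = 0.00993).

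CYP72A8, a cytochrome P450 gene, was called on both the average and the difference. It had 10.9, 12.4 and 11.8 CPM in sapx tapx and 82.3, 72.9 and 84.8 CPM in sapx tapx pgr5, against 10.5, 8.65 and 7.09 CPM in wild type and 17.0, 14.8 and 20.2 CPM in pgr5. Each group without both peroxidases lay above its own counterpart. The average rise was 1.43 ± 0.28 (adjusted p = 0.0415, lost in 9 omissions, highest 0.165 without pgr5 replicate 3), and the difference was 1.78 ± 0.22 (adjusted p = 0.00993). CML23, a calmodulin-like calcium sensor, went the other way in each background: it had 20.6, 25.5 and 19.6 CPM in sapx tapx against 7.84, 10.6 and 11.5 CPM in wild type, and 11.1, 9.85 and 10.1 CPM in sapx tapx pgr5 against 17.5, 14.7 and 16.2 CPM in pgr5. The difference was -1.77 ± 0.22 (adjusted p = 0.00993). AT5G35320 had 6.34, 5.27 and 4.86 CPM in sapx tapx against 9.50, 6.75 and 9.76 CPM in wild type, and 61.0, 43.6 and 57.1 CPM in sapx tapx pgr5 against 17.7, 17.9 and 17.2 CPM in pgr5, a difference of 2.27 ± 0.25 (adjusted p = 0.00490).

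Among genes of photosynthesis the called changes were small. FD2, the main leaf ferredoxin, which takes electrons from photosystem I, had 2251, 2354 and 2385 CPM in sapx tapx and 2439, 2445 and 2631 CPM in sapx tapx pgr5, against 1799.7, 1839 and 1777 CPM in wild type and 2214, 2086 and 2127 CPM in pgr5. It rose by 0.30 ± 0.05 (adjusted p = 0.0114). PSAD2, a stromal subunit of photosystem I, had 391, 369 and 361 CPM in sapx tapx and 391, 363 and 366 CPM in sapx tapx pgr5, against 322, 339 and 291 CPM in wild type and 275, 284 and 278 CPM in pgr5. It rose by 0.33 ± 0.06 (adjusted p = 0.0204), and its groups did not overlap. PETE2, the main plastocyanin, which brings electrons to photosystem I, averaged 4612 ± 233 CPM without both peroxidases and 3847 ± 115 CPM with them (SD, n = 6 each), a rise of 0.26 ± 0.04 (adjusted p = 0.0208). FD2 lost its call without pgr5 replicate 2 or 3 (adjusted p = 0.0578 and 0.0519), and PSAD2 and PETE2 each lost it in 7 omissions (highest 0.0880 and 0.0881, without pgr5 replicate 3). With the trend of fold change with exon length removed, FD2, PSAD2 and PETE2 were at 0.22, 0.26 and 0.20 and all 3 calls were lost (adjusted p = 0.133, 0.0780 and 0.0507). In the wild type background the log2 fold changes of these genes were 0.37, 0.24 and 0.27, and in the pgr5 background 0.23, 0.42 and 0.25. These differences between backgrounds did not pass the test (interaction, adjusted p = 0.816, 0.787 and 0.995).

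These were 2 of the 15 genes of cyclic electron flow and electron carriers and 1 of the 40 genes of light harvesting, photosystems and Rubisco, with list medians of 0.05 and 0.11 and 0 called lower, where 0.495% of all genes tested were called higher. The Rubisco small subunit gene RBCS1A stood at 0.15 ± 0.07 (adjusted p = 0.328) and the activase gene RCA at 0.06 ± 0.07 (0.743). ELIP1, an early light-induced protein that binds pigment in thylakoids under light stress, was the 1 called gene of 23 in photoprotection and thylakoid repair. It had 186, 227 and 227 CPM in sapx tapx and 182, 257 and 297 CPM in sapx tapx pgr5, against 295, 296 and 332 CPM in wild type and 362, 423 and 478 CPM in pgr5. It was lower within each background without overlap, by 0.65 ± 0.12 on the log2 scale (log2 fold change -0.65, adjusted p = 0.0256). The call was lost in 5 omissions (highest adjusted p = 0.0787, without pgr5 replicate 2).

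The lists of other antioxidant genes had no called member. Of 21 tested genes of ascorbate recycling and synthesis and 24 of other superoxide and peroxide enzymes, 0 were called, with medians of 0.05 each. Over all genes tested 0.575% were called, so 0 of so few genes is near that share. Cytosolic APX1 had 1631, 2357 and 2338 CPM in sapx tapx and 4451, 5228 and 5096 CPM in sapx tapx pgr5, against 1470.1, 2320.0 and 2015 CPM in wild type and 1955, 2078 and 2217 CPM in pgr5. The 3 triple mutant libraries stood above the other 9, with 1.24 ± 0.17 in the pgr5 background (adjusted p = 0.00241) and an average of 0.68 ± 0.20 (adjusted p = 0.140, but 0.0195 with equal weight on both backgrounds and 0.0260 with DESeq2). VTC2, which encodes the enzyme of the first committed step of ascorbate synthesis, stood at -0.32 ± 0.22, the catalase gene CAT2 at 0.09 ± 0.08 and the chloroplast peroxiredoxin gene 2CPA at -0.10 ± 0.04 (adjusted p = 0.536, 0.625 and 0.313).

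The rapid stress and touch list, the singlet oxygen response list and the jasmonate list had medians of 0.88, 0.91 and 0.68. Of their 22, 10 and 23 genes tested 0 were called, where 0.575% of all genes tested were. The list medians differed between the backgrounds: 1.37, 1.44 and 0.16 for sapx tapx over wild type, and 0.63, 0.48 and 1.22 for sapx tapx pgr5 over pgr5, differences that were not tested. WRKY33 had 125, 17.1 and 84.6 CPM in sapx tapx and 54.3, 14.5 and 59.0 CPM in sapx tapx pgr5, against 5.33, 75.1 and 4.88 CPM in wild type and 20.6, 39.3 and 15.1 CPM in pgr5. The libraries that stood apart in the rapid stress list stood apart here too, and the log2 fold change was 1.098 ± 0.66 (adjusted p = 0.465). TCH4, a touch-induced cell wall enzyme gene, stood at 0.69 ± 0.88 (0.756). The jasmonate synthesis genes AOS and LOX2 stood at 1.04 ± 0.31 (0.148) and 0.19 ± 0.35 (0.840). Without wild type replicate 2 the medians of these 3 lists were 1.54, 1.27 and 1.42, with 1, 0 and 6 genes called higher. In that omission 203 of 16567 genes tested were called higher. Without wild type replicate 1 the rapid stress median was 0.58, and without wild type replicate 3 it was also 0.58. The part of the differences within genotypes in these medians was not tested.

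Flavonoid and anthocyanin genes had the lowest median of the process lists, -0.26, with 0 of 18 called (4 lower without wild type replicate 2 and 2 lower without sapx tapx replicate 3), PAL1 being at -0.37 ± 0.09 (adjusted p = 0.0914, but 0.0120 with equal weight on both backgrounds and 0.0148 with DESeq2) and F3H at -0.28 ± 0.08 (0.165). Over all genes 37 of 16567 and 17 of 16549 tested were called lower in these omissions. There was also no called gene among 11 of salicylate and systemic defence (median 0.16), 20 of abscisic acid, drought and cold (0.15), 14 of sulfate assimilation and glutathione synthesis (0.18) and 16 of glucosinolate synthesis (0.30). The same held for 9 of iron storage and iron deficiency (-0.04, with the ferritin gene FER1 at 0.92 ± 0.30 and an adjusted p of 0.183), 13 clock genes (-0.02), 12 endoplasmic reticulum chaperones (-0.03) and 27 splicing factors and their kinases (0.03). Without wild type replicate 2, however, FER1 and FER3 of the iron list (adjusted p = 0.0261 and 0.0284), 2 genes of glucosinolate synthesis and 1 of salicylate and systemic defence were called higher. In that omission 203 of 16567 genes tested were called higher. Markers of guard cells, trichomes, phloem and dividing cells had 0 called of 7, 5, 7 and 6 genes tested. Their medians were -0.15, -0.14, 0.07 and -0.12. Summed guard cell markers reached 95.5 to 115 CPM without both peroxidases and 100.6 to 130 CPM with them. In all, 17 of the 94 called genes were members of the lists, with the mutated genes SAPX and TAPX among them. Over all genes tested 0.575% were called. The lists were chosen with earlier results of these data known, so this count is a description only.

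A set of genes outside the lists rose in both backgrounds, several of them short. GRP-3, a glycine-rich protein of the cell wall that binds a wall-associated kinase, had 288, 379 and 267 CPM in sapx tapx and 426, 444 and 379.6 CPM in sapx tapx pgr5, against 216, 207 and 185 CPM in wild type and 234, 215 and 187 CPM in pgr5. The groups did not overlap, and the rise was 0.80 ± 0.10 (adjusted p = 0.00565). The metallothionein genes MT2B and MT3, whose proteins bind metal ions, rose by 0.41 ± 0.06 (adjusted p = 0.0103) and 0.47 ± 0.08 (0.0260). MT2B lies within AT5G02370 on the other strand, with 747 shared bases, and with unique reads only its rise was 0.25 (adjusted p = 0.0927). SDH8, a subunit of mitochondrial succinate dehydrogenase, rose by 0.68 ± 0.09 (0.00710), AT1G67785 by 0.85 ± 0.13 (0.0114) and AT1G23130 by 0.72 ± 0.11 (0.0105). MT2B lost its call without pgr5 replicate 2 or 3 (adjusted p = 0.0507 and 0.0519), AT1G67785 (0.0578 and 0.0504) and AT1G23130 (0.0507 and 0.0519) without the same libraries, and MT3 in 8 omissions (highest 0.0951, without pgr5 replicate 2). With the length trend removed MT2B, MT3, SDH8 and AT1G67785 lost theirs (adjusted p = 0.0507, 0.148, 0.0577 and 0.109), and with the block MT3 lost its call (0.0528).

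A few more called genes are given that were chosen after their values were seen. QQS, a short Arabidopsis gene that affects how carbon and nitrogen are shared between starch and protein, had 12.5, 15.4 and 18.1 CPM in sapx tapx and 2.82, 3.39 and 2.86 CPM in sapx tapx pgr5, against 3.50, 1.38 and 2.205 CPM in wild type and 1.02, 0.897 and 1.44 CPM in pgr5. It was higher within each background, most in sapx tapx, and rose by 2.24 ± 0.26 (adjusted p = 0.00273). CDSP32, a chloroplast thioredoxin-like protein that reduces peroxiredoxins and methionine sulfoxide reductase, averaged 455 ± 142 CPM without both peroxidases and 308 ± 56.4 CPM with them, a rise of 0.52 ± 0.07 (adjusted p = 0.00580). CP12-1, which holds Calvin cycle enzymes in an inactive complex, averaged 647 ± 44.5 and 467 ± 33.8 CPM in the same order (SD, n = 6 each) and rose by 0.47 ± 0.06 (adjusted p = 0.00565). AAP2, an amino acid transporter of the phloem, and AT3G11720 rose by 0.90 ± 0.10 (0.00272) and 0.96 ± 0.09 (0.000663). All 5 are among the 15 genes called in every omission of 1 library. Since they were chosen after their values were seen, this adds no support for them.

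Besides SAPX, TAPX and ELIP1, the named genes called lower include HEI10, ER and GER3. HEI10, a factor of meiotic crossing over, had 0.476 to 1.94 CPM without both peroxidases (median 1.59) and 2.68 to 5.67 CPM with them (median 3.87), and its log2 fold change was -1.52 ± 0.29 (adjusted p = 0.0382). It shares 1446 bases with MRD1 on the other strand, which was at -1.96 (adjusted p = 0.0940), so its reads cannot be told from those of MRD1. ER, the ERECTA receptor kinase that shapes shoots and stomatal spacing, had 47.9, 44.7 and 57.1 CPM in sapx tapx and 38.6, 37.4 and 38.9 CPM in sapx tapx pgr5, against 59.0, 74.3 and 65.8 CPM in wild type and 49.1, 56.7 and 56.9 CPM in pgr5. It was lower within each background, with a log2 fold change of -0.46 ± 0.08 (adjusted p = 0.0260). The germin-like gene GER3 was at -0.59 ± 0.10 (adjusted p = 0.0204), the sinapate glucosyltransferase gene UGT84A1 at -0.70 ± 0.14 (0.0417), AT4G20310 at -0.67 ± 0.13 (0.0470), MDA1, of the mitochondrial transcription termination factor family, at -0.58 ± 0.11 (0.0301) and the Pumilio gene PUM24 at -0.40 ± 0.08 (0.0415). GER3 lost its call in 3 omissions and ER in 7 (highest adjusted p = 0.0701 and 0.0794, without pgr5 replicate 3 and 2), and HEI10, UGT84A1, AT4G20310, MDA1 and PUM24 in 9 to 11 (highest 0.114, 0.126, 0.150, 0.105 and 0.118, all without pgr5 replicate 3). With the block all 7 lost their calls (HEI10 0.156, ER 0.0537, GER3 0.0553, UGT84A1 0.0548, AT4G20310 0.116, MDA1 0.0905 and PUM24 0.0921).

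Over all genes the change in exon reads went with exon length. When the 16350 genes were split by exon length into 5 equal groups, the median log2 fold changes were 0.10, 0.04, 0.00, -0.02 and -0.06 from the shortest to the longest. Of the 81 genes called higher, 67 were shorter than the median exon length of 1615 bases, as were 6 of the 13 called lower. With this trend removed, an alternative chosen after seeing the data, 46 genes were called, 38 higher and 8 lower, 45 of them among the 94.

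**Figure D3:**
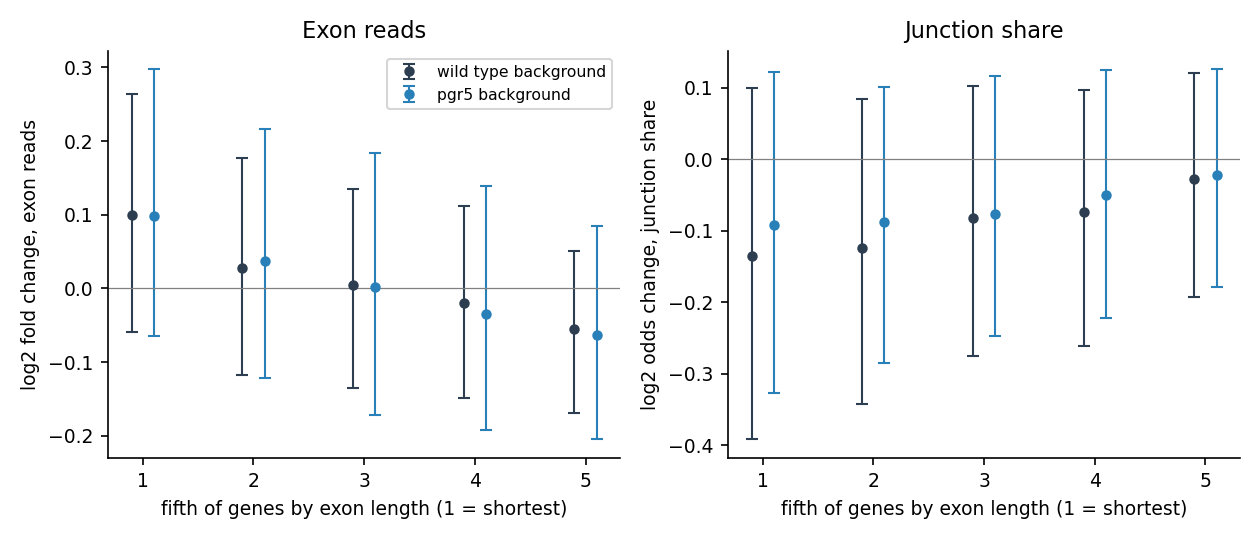
Median (points) and quartiles (bars) of the log2 fold change of exon reads (left) and of the change in log2 odds of the junction share (right) in 5 equal groups of genes ordered by exon length on the x axis, for sapx tapx over wild type (dark) and sapx tapx pgr5 over pgr5 (blue). The medians of exon reads fall with length and those of the junction share approach 0, in both backgrounds.

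Exon-exon reads made up a smaller part of all exon reads in every library without both peroxidases. They were 41.5%, 41.9% and 41.4% in sapx tapx and 41.6%, 42.5% and 41.9% in sapx tapx pgr5, against 43.9%, 43.6% and 43.5% in wild type and 43.5%, 43.8% and 43.7% in pgr5. The groups did not overlap, with means of 41.8% ± 0.403 and 43.6% ± 0.152 (SD, n = 6 each). The difference was -1.85 percentage points (exact permutation within backgrounds, two-sided, p = 0.005, the smallest that its 400 arrangements can give). Over the 6 means of same-number libraries within a side the difference was the same, and the exact permutation p was 0.1, the smallest that 20 arrangements can give. It was -2.07 points in the wild type background and -1.64 in the pgr5 background. The intron share of whole libraries was 1.28% ± 0.145 without both peroxidases and 1.42% ± 0.146 with them, a difference of -0.133 points (exact permutation p = 0.160). Without wild type replicate 1 it was -0.185 points (exact permutation p = 0.0350).

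**Figure D4:**
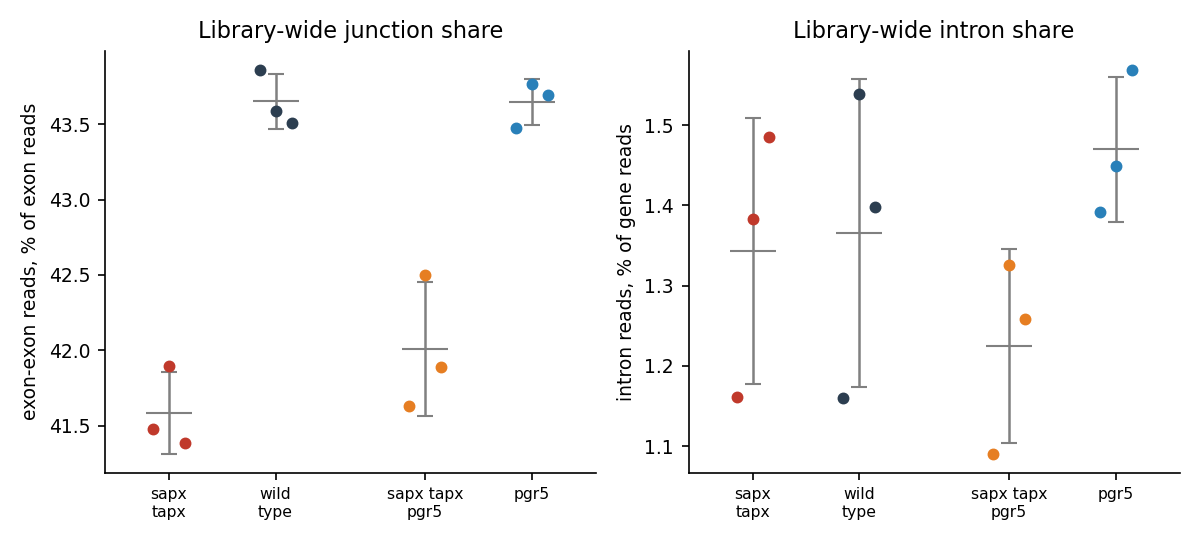
Exon-exon reads as a percentage of exon reads (left) and intron reads as a percentage of gene reads (right) in each library (points) with the mean and SD of 3 libraries per genotype (bars). The 6 libraries of sapx tapx and sapx tapx pgr5 lie at 41.4% to 42.5% on the left and the other 6 at 43.5% to 43.9%, and the groups overlap on the right; the axes do not start at 0.

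Gene by gene, the junction share was called for 1166 of 12551 genes tested (9.29%), 198 higher (1.58%) and 968 lower (7.71%), with a median log2 odds of -0.07 over all genes tested. The signs matched in both backgrounds for 1163 of the 1166, and 0 genes were called in the test of the difference between backgrounds. The 1166 genes were called on the term over both backgrounds, which favours matching signs. Over all 12551 genes Spearman's rho of the log2 odds between the backgrounds was 0.249. It was 0.526 over the 4266 genes with a mean of at least 200 reads. The ranges of both groups of 6 did not overlap for 499 of the 1166, while this held for 4.42% of all genes tested. The edgeR fit of this share gave every gene the same spread, so that its p-values for well-read genes are very small, and limma on the log odds, which lets genes differ in spread, called 889 genes. With the block limma called 906, and the correlation within blocks was -0.0137. With the shift of whole libraries removed, 892 genes were called (7.11%), 398 higher (3.17%) and 494 lower (3.94%), so that the higher ones were 44.6% of calls where they had been 17.0%. Calls depended on depth: among the 377 genes with at least 2000 mean exon reads per library 12.2% were higher and 41.4% lower, and among the 5372 with 20 to 100 reads 0.410% and 1.73%.

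Among the higher shares was PSRP5 (AT3G56910, chromosome 3, 21069411 to 21070356), a protein of the chloroplast ribosome whose gene has 1 intron, the first joint printed above. Its share was 38.3%, 37.4% and 38.5% in sapx tapx and 38.1%, 38.4% and 40.9% in sapx tapx pgr5, against 27.8%, 27.1% and 27.5% in wild type and 28.3%, 29.0% and 26.9% in pgr5. GRP-3, also called on exon reads, had 37.7%, 38.4% and 38.4% in sapx tapx and 38.8%, 38.8% and 39.0% in sapx tapx pgr5, against 28.8%, 29.1% and 29.4% in wild type and 28.5%, 29.8% and 29.1% in pgr5. In both genes the gap between the groups was wider than the range within either. The log2 odds rose by 0.71 ± 0.03 (edgeR adjusted p = 1.05e-95, limma 1.69e-11) and 0.61 ± 0.05 (4.43e-35, limma 8.09e-10).

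FAD2, the oleate desaturase of the endoplasmic reticulum, whose coding sequence lies in a single exon, had 8.72%, 8.22% and 8.17% in sapx tapx and 8.53%, 8.38% and 8.08% in sapx tapx pgr5, against 5.57%, 5.75% and 5.51% in wild type and 6.35%, 5.63% and 4.94% in pgr5. It rose by 0.61 ± 0.06 without overlap (edgeR adjusted p = 2.55e-21, limma 1.53e-08). MT2B had 40.6%, 41.1% and 41.5% in sapx tapx and 41.2%, 40.6% and 39.5% in sapx tapx pgr5, against 36.7%, 36.0% and 34.1% in wild type and 36.5%, 37.1% and 36.9% in pgr5, a rise of 0.27 ± 0.03 (3.23e-18, limma 6.46e-06). MT3 (0.43 ± 0.04), the cold-induced gene KIN2 (0.44 ± 0.05), the ribosomal protein gene AT4G18100 (0.49 ± 0.05) and the nitrilase gene NIT1 (0.21 ± 0.02) completed the 8 higher genes with the smallest adjusted p.

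Of the lower shares, those of PSBR and PSBP1 had the smallest adjusted p. PSBR (AT1G79040, chromosome 1, 29736016 to 29737009), a subunit of photosystem II near the oxygen-evolving complex, had 73.2%, 72.9% and 73.4% in sapx tapx and 72.7%, 72.8% and 71.8% in sapx tapx pgr5, against 83.1%, 81.6% and 81.7% in wild type and 80.1%, 80.5% and 80.1% in pgr5. PSBP1, an extrinsic protein of the oxygen-evolving complex, had 43.0%, 44.1% and 44.1% in sapx tapx and 42.6%, 44.7% and 43.9% in sapx tapx pgr5, against 53.1%, 53.4% and 53.0% in wild type and 52.0%, 52.1% and 52.7% in pgr5. All 6 libraries without both peroxidases lay below the other 6 for both genes. The log2 odds fell by 0.69 ± 0.02 (edgeR adjusted p = 1.24e-244, limma 1.14e-13) and by 0.52 ± 0.02 (3.76e-163, limma 1.14e-13).

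PSAE-1, a stromal subunit of photosystem I, had 51.8%, 53.3% and 52.5% in sapx tapx and 51.9%, 53.5% and 54.0% in sapx tapx pgr5, against 60.4%, 59.0% and 61.7% in wild type and 62.2%, 61.1% and 61.1% in pgr5. The peroxiredoxin gene 2CPA had 67.4%, 70.3% and 69.7% in sapx tapx and 67.7%, 70.7% and 70.0% in sapx tapx pgr5, against 76.3%, 76.4% and 76.3% in wild type and 74.1%, 77.0% and 76.0% in pgr5. Neither gene's groups overlapped, and the exon reads of 2CPA were not called, as given above. The changes in log2 odds were -0.48 ± 0.03 (edgeR adjusted p = 2.80e-76, limma 4.87e-10) and -0.49 ± 0.03 (4.19e-74, limma 3.16e-08). The curvature protein genes AT4G01150 (-0.61) and PSI-P (-0.37 ± 0.02), the Rubisco small subunit gene RBCS3B (-0.31 ± 0.02, a gene with near-identical neighbours among which reads can be split) and the chlorophyll synthesis gene CRD1 (-0.34 ± 0.02) completed the 8 lower genes with the smallest adjusted p.

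**Figure D5:**
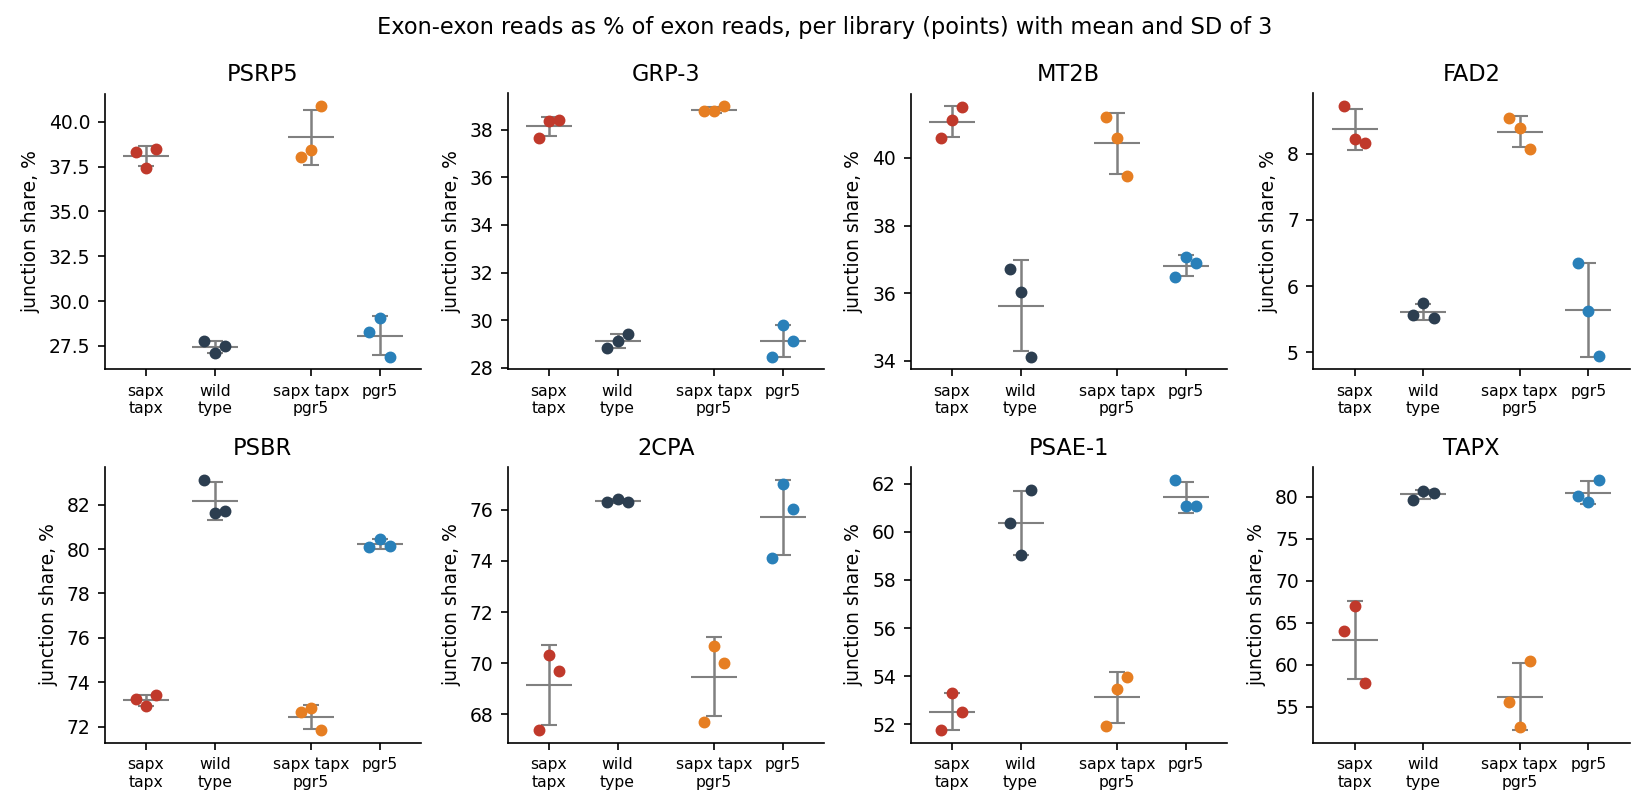
Exon-exon reads as a percentage of exon reads (y axis) for 8 genes in each library (points) with the mean and SD of 3 libraries per genotype (bars). In the upper row the sapx tapx and sapx tapx pgr5 libraries lie above the wild type and pgr5 libraries, in the lower row below them, with no overlap in any panel; axes do not start at 0.

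Counts by list are to be read against the background of 1.58% higher and 7.71% lower over all genes tested, and against depth. By list, 16 of the 32 tested genes of light harvesting, photosystems and Rubisco had a lower share and 3 a higher one, and 11 of the 23 other superoxide and peroxide enzymes had a lower share and 1 a higher one, with a median of -0.26. With the shift of whole libraries removed these counts were 14 lower and 9 higher, and 10 lower and 1 higher. Ascorbate genes had 6 lower and 1 higher of 21, photoprotection genes 8 lower and 2 higher of 23, genes of cyclic flow and carriers 4 lower of 11, and splicing factors 1 lower of 27. Of the 32 genes of light harvesting, photosystems and Rubisco 29 had at least 2000 mean exon reads, and they held all 16 lower calls and all 3 higher ones, where 41.4% of all genes at that depth were lower and 12.2% higher. Of the 23 other superoxide and peroxide enzymes 7 were at that depth, 5 of them lower.

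A single joint gives the simplest case. Of the 1174 tested genes with 2 exons, 43 had a higher share (3.66%) and 65 a lower one (5.54%), against 34 and 245 of the 3622 genes with 11 or more exons. In the 837 genes with 1 joint in the coding sequence, the median log2 odds was 0.02 in the 168 genes whose joint lay 55 to 336 bases from the 5′ end, with 24 higher and 15 lower. In the next 4 groups of about equal size, with joints ever farther from that end, the medians were -0.11, -0.10, -0.10 and -0.04, and higher calls numbered 8, 0, 1 and 1. Higher calls were also most numerous in the fifth of genes with the shortest stretch after the joint, with 19 higher and 10 lower, and 7, 4, 4 and 0 were higher in the next 4 groups. Over the 837 genes, Spearman's rho of the log2 odds was -0.05 with the bases before the joint and -0.02 with those after it, a description across genes of the same libraries. The printed joints of PSRP5, AT4G18100 and MT2B lie 196, 262 and 145 bases from the 5′ end of the RefSeq transcript and those of LHCB4.1, COR15B and LHCB6 lie 728, 757 and 431 bases from it. The log2 odds of the last 3 genes were -0.21, -0.40 and -0.19.

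Of the 94 genes called on exon reads 60 were tested on junction share, and 17 of these were called on it, where 9.29% of all genes tested were. TAPX, GRP-3, MT2B, MT3, SDH8, AT1G67785, AT1G23130, AT1G76200, AT3G13120 and AT2G37240 were the 10 with the smallest adjusted p on the junction share. AT1G76200 rose by 0.35 ± 0.06 on exon reads (adjusted p = 0.0310) and fell by 1.05 ± 0.11 in junction log2 odds. AT3G13120, a gene of the chloroplast ribosome, was at -0.23 ± 0.04 on exon reads (adjusted p = 0.0417) and -0.29 ± 0.04 in junction log2 odds, and AT2G37240 at 0.34 ± 0.07 (adjusted p = 0.0489) and -0.50 ± 0.07. The exon-read call of AT2G37240 was lost in all 12 omissions of 1 library (highest adjusted p = 0.152, without pgr5 replicate 2), that of AT3G13120 in 10 and that of AT1G76200 in 9 (highest 0.115 and 0.116, without the same library). With the block these 3 genes lost their calls too (AT2G37240 0.0927, AT3G13120 0.0927 and AT1G76200 0.0603). SDH8 and AT1G67785 rose on both measures, by 0.91 ± 0.16 and 1.23 ± 0.18 in junction log2 odds, and AT1G23130 fell by 0.28 ± 0.04. A change in exon reads and a change in junction share therefore went in the same direction for some genes and in opposite directions for others.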

How the data were processed

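RNA-seq tables of 12 libraries, 3 per genotype, were used. Per the file headers, the authors deposited raw counts per gene (total and unique exon, exon-exon, intron and gene reads). The submitters' processing notes name the build TAIR10. Aligner and counter: not given in the sources used here. The RPKM and TPM values were not used. Each table lists 28642 genes, of which 28009 were named through RefSeq.

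Total exon reads were fitted with edgeR 4.0.16 (R 4.3.3), TMM, filterByExpr and pgr5 plus peroxidase genotype. Interactions and backgrounds used 4 groups. Shares were fitted in edgeR as paired counts with 1 term per library, for genes with a mean denominator of at least 20 reads and 24 reads in each part. Adjusted p is Benjamini-Hochberg, called under 0.05. limma 3.58.1 and DESeq2 1.42.0 were alternatives, one with same-number libraries of a peroxidase status as a random block (limma), added because those numbers deviated together in the data. The correlation within blocks was 0.268 for exon reads and -0.0137 for the junction share of genes. The labels do not say what the numbers share. On simulated counts of 16350 genes the exon fit recovered 87% of 2-fold and 98% of 4-fold changes, with 12 unchanged genes among 197 calls. Whether these rates hold for the sequenced libraries was not tested.

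Members and lists were chosen with earlier results of these data known. Named genes were SAPX, TAPX, PGR5, the 10 largest called changes each way, up to 4 called per list (otherwise the 2 with the highest CPM), the 8 smallest adjusted p per share and direction, up to 10 called on both measures and up to 6 interactions. Without molecular identifiers, reads are not independent molecules, so counting intervals and floors hold for counting error alone.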

Additional observations from a re-analysis of the deposited data

Results flagged for a closer look

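For 6 genes the effect of losing both peroxidases differed between the backgrounds in the edgeR interaction test on exon reads (effect in the pgr5 background minus effect in the wild type background, log2). These were the 6 of 23 called genes with the smallest adjusted p. AT5G35320 differed by 2.27, SAT32 by 2.09, CYP72A8 by 1.78, FES1A by 1.48 and SEC10 by 1.32, all with the larger value in the pgr5 background. CML23 differed by -1.77, being higher in sapx tapx than in wild type and lower in sapx tapx pgr5 than in pgr5. All 6 kept their interaction calls in each of the 12 omissions of 1 library.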

How the results depend on the processing

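The 94 calls on exon reads became 159 with equal weight on both backgrounds (83 shared), 271 with DESeq2 (83 shared), 46 with the length trend removed (45 shared), 203 with the replicate block across peroxidase status and 57 with the replicate block within it. Leaving out 1 library gave 19 to 240 calls. Same-number libraries across peroxidase status did not deviate together (correlations of -0.673 to 0.138, 1 of 12 above 0.1), so the block across it has no basis in the data, while within status 6 of 6 pairs did. Pairs with different numbers across status reached 0.538. The 17 called list members became 11 with the length trend removed, 27 with limma and 4 to 39 over the omissions. The 23 interaction calls became 98 with DESeq2, 50 with the replicate block across status and 119 with that within it, and 10 to 61 over the omissions. The 2 intron share calls became 1 with limma, with or without the block within status, and 1 to 4 over the omissions, and the 1166 junction share calls numbered 889 to 1215 in all settings (996 to 1098 over the omissions), with 692 of the 1166 called with the shift removed and 523 in every setting and omission. The library-wide junction difference of -1.85 points had an exact permutation p = 0.1 with the replicate block within status, the smallest possible, and was -1.97 to -1.76 points over the omissions and the intron difference -0.185 to -0.0881. Among genes that were not called, log2 fold changes changed sign with the length trend removed for AHA3 (0.0662), BIP1 (0.0115), GC1 (-0.0236), HIS4 (-0.0426), HSP90.7 (0.0378) and U2AF65A (0.0165). Over the omissions 6 uncalled genes changed sign: AHA3 (-0.0323 to 0.0239), BIP1 (-0.107 to 0.0452), HSP90.7 (-0.0734 to 0.00380), LOX2 (-0.0325 to 0.537), TTG1 (-0.157 to 0.0347) and U2AF65A (-0.0984 to 0.0258), as did the junction odds of SAPX (-0.152 to 0.0763). TTG1 changed sign with limma (0.0074, and 0.0404 with the block within status). The called HSP17.6A changed sign with equal weight on both backgrounds (-0.10), and the junction odds of SAPX with the shift removed (0.0088). The length trend, the unique read shares, limma on exon reads and the block within status were chosen after seeing the data, and the cause of these changes was not tested. At these depths 3 reads are 0.439 to 0.610 CPM, and values near that level rest on a few reads.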
